A study of Drosophila melanogaster with 3 samples.

Results

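Far-intronic peaks are the places where the signal of GFP-tagged zf30C was highest inside introns that lie far from any gene start. A peak is a summit on the authors' final region list, kept by the irreproducible discovery rate (IDR), which measures how evenly regions rank between replicates. A peak was counted when its summit lay over 2000 bp from every annotated transcription start, inside a protein-coding gene and in no annotated exon, on the main chromosome arms. Of the 3567 peaks, 734 met this rule, which is 20.6% (exact 95% interval 19.3 to 21.9%). They filled 705 distinct regions and lay in 414 host genes. The rule used position alone and neither signal, replicate ranks nor sequence. It does limit which genes can be hosts, since a gene needs intron sequence far from every start. For comparison, 518 near-intronic peaks lay in introns, over 500 and up to 2000 bp from a start, 1430 promoter peaks lay within 500 bp of a start, and 433 intergenic peaks lay in no gene and over 2000 bp from any start.

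The study applied chromatin immunoprecipitation with sequencing (ChIP-seq) to whole *Drosophila melanogaster* embryos of both sexes, aged 0 to 24 h. All 3 biological replicates belonged to 1 group, a transgenic line with zf30C fused to GFP at its C-terminal end, and no second condition or control library was analysed here. The labels name zf30C as the antibody target, yet a free-text note in them calls the same libraries an input control; they were treated as immunoprecipitated samples. Chromatin came from every tissue of the embryo, so a peak cannot be assigned to a cell type, and the labels do not say how the tagged copy is expressed relative to the untagged gene.

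zf30C is a protein with C2H2 zinc fingers, a fold that in many transcription factors reads a short DNA sequence. Introns of developmental genes in flies often hold enhancers, stretches of DNA that bind transcription factors and act on a start at a distance. First introns tend to be the longest of a gene and are a common place for such elements. A peak in an intron shows where the tagged protein was enriched, not which gene it acts on.

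A short element was more frequent at the summits than in the flanks, though most summits lacked it, so windows around strong far-intronic peaks are shown first. They are those of the 5 strongest far-intronic peaks on arms 2L, 3L, 3R and X, which ranked 1, 2, 3, 8 and 9 among all far-intronic peaks. The letters are from the RefSeq Release 6 genome, the assembly that dm6 denotes, 50 bp to each side of the summit, read 5′ to 3′ on the strand of the host gene. Capitals mark CACTG or its reverse complement CAGTG, the 5 letters shared by 3 of the 8 leading 6-mers described further on. The aop, cno, ImpL2 and E2f1 windows are on the minus strand and the tara window is on the plus strand. They lie at chr2L:2164903-2165003 (aop), chr3R:5212404-5212504 (cno), chr3L:4230479-4230579 (ImpL2), chr3R:16250590-16250690 (tara) and chr3R:21641724-21641824 (E2f1).
aop: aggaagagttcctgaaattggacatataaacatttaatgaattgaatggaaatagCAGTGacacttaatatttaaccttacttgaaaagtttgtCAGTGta
cno: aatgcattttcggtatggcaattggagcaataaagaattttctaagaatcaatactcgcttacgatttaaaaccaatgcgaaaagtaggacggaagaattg
ImpL2: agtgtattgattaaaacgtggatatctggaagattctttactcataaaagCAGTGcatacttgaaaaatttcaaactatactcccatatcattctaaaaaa
tara: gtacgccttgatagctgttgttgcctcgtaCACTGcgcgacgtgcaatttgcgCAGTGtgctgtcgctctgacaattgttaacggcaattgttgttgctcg
E2f1: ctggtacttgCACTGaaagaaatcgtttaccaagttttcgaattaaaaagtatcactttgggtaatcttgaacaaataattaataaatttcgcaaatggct
The aop and tara windows each held 2 matches and the ImpL2 and E2f1 windows 1 each. The cno window, from the second strongest far-intronic peak, held none within 50 bp of its summit. Of the strongest 177 far-intronic regions 43.5% held the core within 50 bp, so these 5 windows hold it more often than that group does.

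The 10 strongest far-intronic peaks on the same arms whose window held the core after T and then A or G are aligned next. Each is read on the strand that carries the core, at the match nearest to the summit. Capitals mark TACACTG or TGCACTG. The plus-strand stretches are chr2L:2164898-2164921 (aop, strongest peak), chr3L:4230518-4230541 (ImpL2), chr3R:16250613-16250636 (tara), chr3R:30794627-30794650 (wts), chr3R:10626264-10626287 (hth) and chr3L:2531597-2531620 (Spn). The minus-strand stretches are chr3R:21641798-21641821 (E2f1), chrX:13234057-13234080 (mew), chr2L:2163719-2163742 (aop, second peak) and chr3L:19042764-19042787 (nkd).
aop, strongest peak: cttcgTACACTGacaaacttttca
ImpL2: aagtaTGCACTGcttttatgagta
tara: cctcgTACACTGcgcgacgtgcaa
E2f1: gtactTGCACTGaaagaaatcgtt
mew: ttttcTACACTGaagaaaacatct
aop, second peak: cgtgaTGCACTGagagaaatcagg
nkd: atggaTGCACTGggaaaaaattcc
wts: attccTGCACTGaaagaaataccc
hth: caaagTGCACTGaatctggtcaga
Spn: caaaaTACACTGagcaaaaaaagg
Most of these stretches run on from the core into a run rich in A, and the strongest aop stretch and those of ImpL2, tara and hth do so less.

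The leading 6-mers came from a search of all 2080 6-mers, each joined with its reverse complement. For each of the 705 regions, presence within 50 bp of the summit was set against presence in 50 bp of flank on each side, the outer end of which lay 200 bp from the summit, by exact McNemar tests adjusted by the Benjamini-Hochberg method. Of the 2080 6-mers, 232 passed an adjusted p of 0.05 (11.2%), and 146 of them were more frequent at the centre (7.02%). The tests count regions, which are not replicates of a condition, so their p describes these regions alone. Among the 509 peaks supported by replicates 2 and 3 the count was 117, and among the 517 supported by replicates 1 and 3 it was 142. ACACTG had the lowest p: 20.7% of regions held it at the centre and 3.40% in the flanks (exact McNemar test, adjusted p = 5.8e-23). CACTGA was in 21.4% of centres and 6.81% of flanks (exact McNemar test, adjusted p = 6.0e-13), and CAGTGC in 20.7% of centres and 5.96% of flanks (exact McNemar test, adjusted p = 1.7e-14). These 3 contain the core. 3 more overlap it by 4 letters: AGTGTA was in 20.9% of centres and 5.11% of flanks, AGTGCA in 22.8% and 9.79%, and ACTGAG in 14.6% and 3.55%. The other two of the 8 lowest p are made mostly of A and T: AAATAT was in 30.2% of centres and 14.3% of flanks, and AGAAAT in 18.7% and 7.38%. The median GC content was 35.6% at the centre and 43.0% in the flanks, and the part of this difference in the 6-mer results was not tested.

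Each replicate gave the same leading 6-mer when its own 3567 highest summits were searched. ACACTG had the lowest p of all 6-mers in each replicate, at 19.2% of centres and 4.95% of flanks in replicate 1, 18.3% and 3.91% in replicate 2, and 19.6% and 4.63% in replicate 3. The replicate lists overlap the IDR list, which was made from them, so they are not independent samples of sites.

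The letters beside the core differed between places. Counting the first C of CACTG as position 1 and reading on its strand, 374 matches within 50 bp of a far-intronic summit were set beside 153 matches in the flanks. T stood at position -2 in 68.2% of central matches and 42.5% of flank matches. At position -1 A stood in 42.0% and G in 43.9% of central matches, against 17.6% and 30.1% of flank matches. At positions 10, 11 and 12 A stood in 66.8%, 70.9% and 68.4% of central matches, against 41.2%, 37.3% and 39.2% of flank matches. The core and these positions were chosen after their values were seen, so they are given as a description with no test.

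Of the 705 far-intronic regions, 315 held the core within 50 bp of the summit, which is 44.7% (exact interval 41.0 to 48.4%), and 18.9% held it in the flanks. The share was 38.0% in near-intronic regions, 37.3% in promoter regions and 43.9% in intergenic regions. In the 6740 weaker far-intronic regions, which are on the pooled list of all replicates but overlap no region of the IDR list, it was 24.6% at the centre and 15.6% in the flanks. The longer form, TACACTG or TGCACTG on either strand, was in 29.9% of far-intronic centres, 21.5% of near-intronic, 15.3% of promoter, 26.3% of intergenic and 9.24% of weaker far-intronic centres. In the flanks these shares were 5.11%, 3.59%, 3.32%, 5.97% and 3.23%. The core and the longer form were chosen from these same 705 far-intronic regions. That choice can favour them over the other classes, so the class shares are a description with no test. In the far-intronic summits of the replicates' own lists the longer form was in 25.8 ± 1.58% of centres and 4.82 ± 1.27% of flanks (SD, n = 3).

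**Figure D1:**
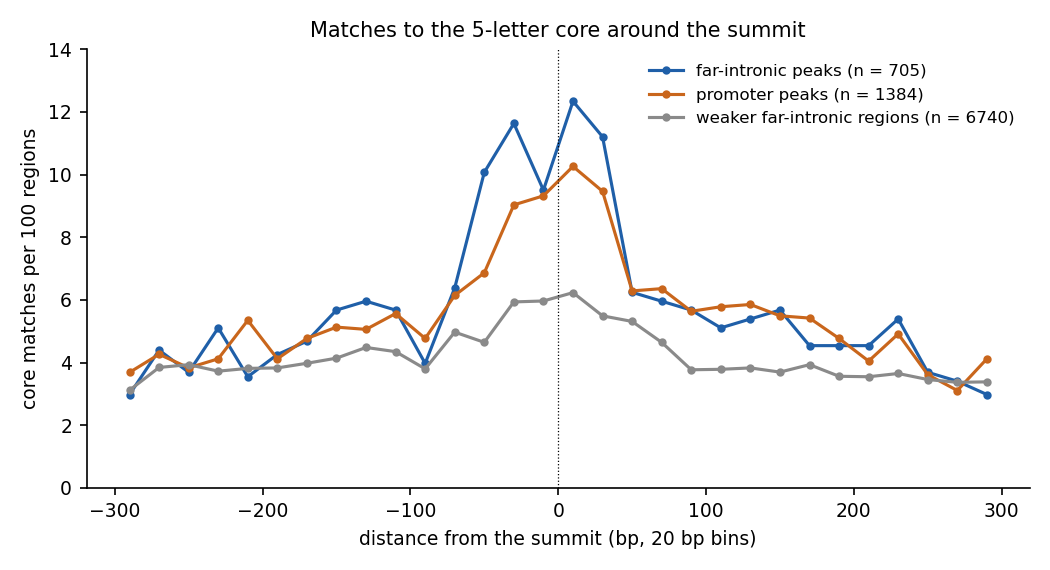
Matches to the 5-letter core on either strand per 100 regions, in bins of 20 bp by distance from the summit (x axis), for far-intronic peaks, promoter peaks and weaker far-intronic regions. Matches were densest around the summit in all 3 curves, reaching 12.3 per 100 regions in far-intronic peaks, 10.3 in promoter peaks and 6.23 in weaker far-intronic regions. The core was chosen from the far-intronic peaks.

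Strength was compared between peaks with and without the core. The median pooled signal was 324 in the 326 far-intronic peaks with the core within 50 bp and 329 in the 408 without it. The median replicate percentile, which is the rank of a peak among all 3567 peaks by its signal in 1 replicate and runs up to 100, differed by -2.79 in replicate 1, -2.26 in replicate 2 and 0.69 in replicate 3 between peaks with and without the core. The mean difference was -1.46 ± 1.87 (SD, n = 3; exact two-sided sign-flip permutation test, p = 0.50), which does not show that the peaks are alike. With 3 replicates this test cannot give a p under 0.25.

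Letters known to be read by other fly factors were looked for on either strand within 100 bp of each summit. The 12 motifs were GAGAG (Trithorax-like), CAGGTAG (Zelda), TGANTCA (AP-1), GTGGGAA (Suppressor of Hairless), CCGGAA (ETS factors), GATAAG (Pannier and its relatives), TTCNNNGAA (STAT), CTTTGA (Pangolin), TATCGATA (DREF), CATATG (Twist), CATTCC (Scalloped) and AACCGG (Grainyhead). Each motif was counted separately, whether or not its match overlapped that of another. Of the 36 comparisons with the other classes, 5 passed (13.9%, two-sided Fisher's exact tests, adjusted by the Benjamini-Hochberg method). These tests count windows, and windows of 1 region or host are not independent. Their p therefore describes these lists alone. GAGAG was in 34.1% of far-intronic windows and 25.9% of intergenic windows (Fisher's exact test, adjusted p = 0.035), but the difference from promoter windows, 35.9%, did not pass (Fisher's exact test, adjusted p = 0.56). CAGGTAG was in 2.32% of far-intronic windows and 0.699% of promoter windows, which is 17 and 10 windows (Fisher's exact test, adjusted p = 0.035). It was in 1.16% of near-intronic and 0.924% of intergenic windows, and neither difference passed (Fisher's exact tests, adjusted p = 0.44 and 0.30). The remaining 3 motifs were less frequent in far-intronic than in promoter windows. TATCGATA was in 0.136% of far-intronic and 4.20% of promoter windows (Fisher's exact test, adjusted p = 1.3e-08). CCGGAA was in 2.32% and 5.59% (Fisher's exact test, adjusted p = 0.0070), and AACCGG in 2.59% and 5.10% (Fisher's exact test, adjusted p = 0.047). For these 3 motifs no difference from near-intronic or intergenic windows passed. Those 2 classes held TATCGATA in 0.579% and 0.231%, CCGGAA in 3.28% and 3.23%, and AACCGG in 3.67% and 3.93%. In windows of the weaker far-intronic regions GAGAG was in 26.2%, CAGGTAG in 1.48%, TATCGATA in 0.267%, CCGGAA in 4.36% and AACCGG in 3.62%. At a start distance of 5000 bp TATCGATA still passed, while the other 4 had adjusted p between 0.093 and 0.43 (Fisher's exact tests); among peaks above the median signal of the IDR list the other 4 had adjusted p between 0.12 and 0.21. With 1 summit per region 4 comparisons passed, and AACCGG against promoter windows had an adjusted p of 0.062 (Fisher's exact test). A match describes the letters in the window and does not show that a factor was bound there.

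Far-intronic peaks spread over long stretches of DNA. Eligible sequence, the bases of protein-coding genes that lie in no exon and over 2000 bp from any start, came to 34.7 Mb, or 25.9% of the arms, and held 21.2 peaks per Mb. The median distance from a summit to the nearest start was 5016 bp, with quartiles of 3046 and 8551 bp. There were 138 peaks over 10000 bp and 25 peaks over 20000 bp from any start, and the farthest lay 47702 bp away. Just inside the limit of 2000 bp lay peaks in CheB42c at 2002 bp, bin at 2010 bp and sim at 2020 bp, with signals of 231, 302 and 446. Just outside it lay peaks in CenG1A at 1997 bp, shf at 1997 bp and Ubx at 1995 bp, with signals of 278, 655 and 254. In 421 cases the nearest start belonged to the host gene. In the other 313 it belonged to another gene, which was protein-coding in 115 cases, a non-coding RNA gene in 99 and an annotated transposable element in 88. Leaving transposable elements out of the annotation gave 760 peaks in 424 host genes.

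First introns held 269 far-intronic peaks, which is 36.6% (exact interval 33.2 to 40.3%), while 24.0% of eligible bases lay in first introns. This is 32.3 peaks per Mb in first introns and 17.6 per Mb in the rest of the eligible sequence. The weaker far-intronic regions had a first-intron share of 33.1% (exact interval 32.0 to 34.2%), and the intervals of the stronger and the weaker regions overlap. In the replicates' own highest regions the share was 39.2 ± 1.58% (SD, n = 3). Second introns held 190 peaks and later introns 183, and 92 peaks lay in no intron of the canonical transcript. The introns with a peak had a median length of 14546 bp.

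On the arms other than chromosome 4 the density ran from 18.4 peaks per Mb of eligible sequence on 3R to 23.2 on 2L. Chromosome 4, with 0.0748 Mb of eligible sequence, had 0 peaks, which allows up to 3 under counting error alone, and 6 summits of the pooled list lay there.

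The host genes were a small share of the genes that could hold such a peak. Of 4068 protein-coding genes with at least 1 eligible base, 414 were hosts, which is 10.2%. Hosts had a median of 16.2 kb of eligible intron, while genes without a far-intronic peak had a median of 0.927 kb. One peak was found in 257 hosts and more than 1 in 157 hosts, and 66.6% of the far-intronic peaks lay in hosts with more than 1. In some hosts with 2 peaks, such as Gug, pico and EcR, both lay in 1 region. Neighbouring peaks of 1 host were a median of 3843 bp apart. Of 341 such pairs, 75 were up to 1000 bp apart, so peak counts can exceed the number of separate sites.

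The host with most peaks was hth, which encodes the homeodomain protein Homothorax. It held 11 peaks with signals between 194 and 2071 in 113 kb of eligible intron, 7 of which lay among the highest regions of all 3 replicates. Tet, the fly member of the TET dioxygenase family, held 10 peaks in 74.8 kb, and ush, whose product is a cofactor of GATA factors, held 10 in 41.4 kb. For Tet 8 and for ush 6 of these peaks lay among the highest regions of all 3 replicates. Both fz2, a Wingless receptor, and ed, an adhesion protein of the immunoglobulin family, held 9 peaks, in 68.2 and 67.9 kb. The 9 peaks of fz2 filled 7 distinct regions and the 10 of Tet filled 9. Each peak of hth, ush and ed had its own region, but the closest summits were 200 bp apart in hth and in ush. In ed they were 1100 bp apart. A region of its own therefore does not show a separate site.

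Next came kirre, a receptor on muscle founder cells that acts in myoblast fusion, with 8 peaks in 253 kb. RapGAP1, a GTPase-activating protein for Rap1, held 8 peaks in 52.0 kb, and cv-c held 8 in 65.7 kb. Those of RapGAP1 filled 6 distinct regions and those of cv-c 7. The transcription co-repressor gene sbb held 7 peaks in 46.8 kb and pnt, an ETS activator downstream of the EGF receptor, held 6 in 38.8 kb. CG43759, CG32816, luna, raskol and Ten-a also held 6 peaks each, and pnt was named before them for its stronger peak. The sbb peaks filled 6 distinct regions, and those of CG43759 and raskol 5 each. Density differed among the 10 named hosts, from 3.16 peaks per 100 kb in kirre to 24.1 in ush.

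Genes with more eligible intron had more peaks, with wide scatter. Across the 4068 genes the Spearman correlation of peak number with eligible length was 0.39, and among the 414 hosts it was 0.35. In the replicates' own highest regions it was 0.374 ± 0.0134 across genes (SD, n = 3). Genes are not independent replicates and the correlations are descriptions with no p. Of 2795 genes with up to 5 kb of eligible intron, 2.15% were hosts. The share was 19.7% between 5 and 10 kb, 93 of 372 genes between 10 and 20 kb, 32.4% between 20 and 50 kb and 52.9% between 50 and 100 kb. Above 100 kb it was 10 of 28 genes, or 35.7% (exact interval 18.6 to 55.9%).

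Some of the longest genes held no peak at all. Myo81F had 1667 kb of eligible intron, Pzl 583 kb, lovit 382 kb, DIP-lambda 331 kb and CG17684 312 kb, and none of these 5 held even a far-intronic summit of the pooled list. The sixth, bru3, had 229 kb and 14 such summits, none of them on the IDR list. Of the 28 genes above 100 kb, 14 had no such summit. The rest of that size class had 2.15 peaks per 100 kb, and all 28 genes together had 0.670. The value over all eligible sequence was 2.12. It keeps genes with no such summit, so only the 0.670 is set on like terms with it. The reason for regions with no listed summit was not tested.

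**Figure D2:**
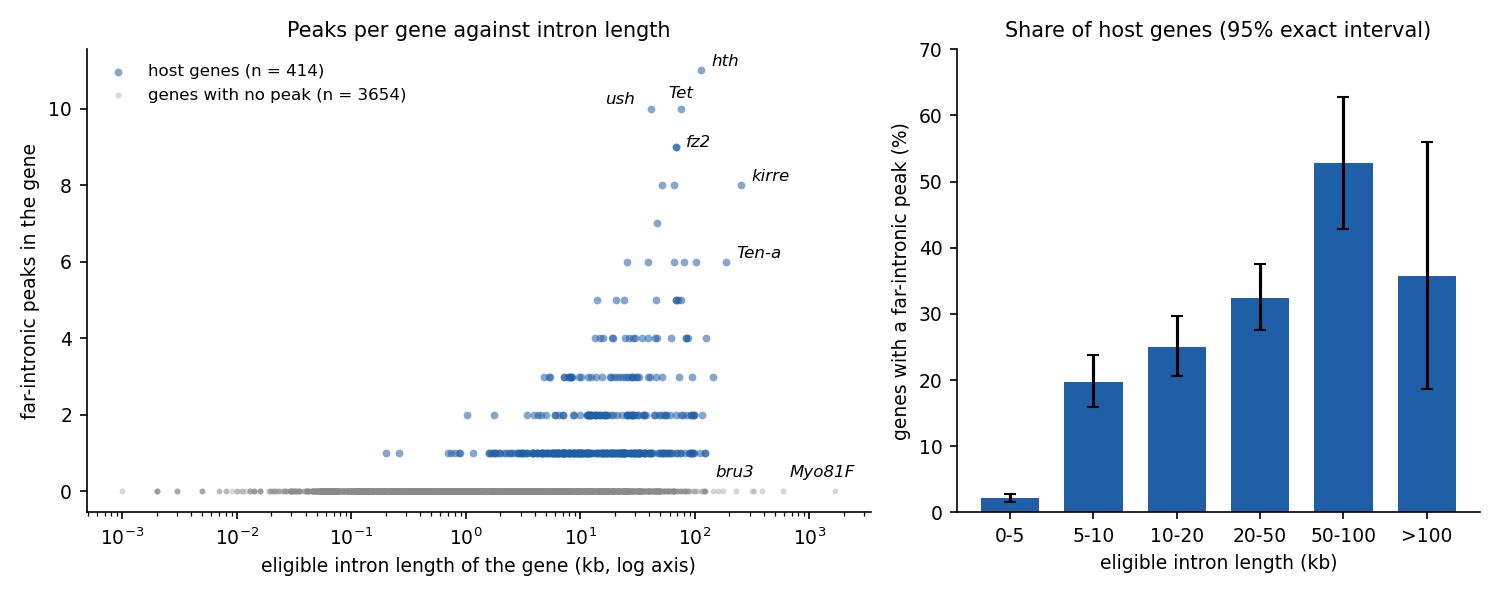
Left, far-intronic peaks per gene against eligible intron length in kb (log axis) for 414 host genes and the genes with no peak. Right, share of genes that are hosts by eligible length with exact 95% intervals, which is 52.9% between 50 and 100 kb and 2.15% up to 5 kb.

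The hosts included many genes of developmental signalling. In each list the share of genes with a far-intronic peak is set beside the 10.2% of all genes with eligible intron, but most lists have longer introns than the median gene, 1.34 kb, and their genes were chosen with results of these data known. Density, in peaks per 100 kb of eligible intron, is therefore given too, and was 2.10 over all genes. Density also changed with length and is not a full correction for it. It was 2.38 in genes of up to 5 kb, 3.73 between 5 and 10 kb and 2.88 between 10 and 20 kb. Between 20 and 50 kb it was 2.05, between 50 and 100 kb 2.09 and above 100 kb 0.670. In the list for the EGF receptor pathway and ETS factors, 7 of 11 genes were hosts, with a median eligible length of 9.95 kb and 12.5 peaks per 100 kb. Its strongest peaks were in aop, an ETS repressor (5401), pnt (2255), aos, a secreted inhibitor of the receptor (1627), and vn, a ligand (517). Of the JNK genes 4 of 6 were hosts, namely the kinase genes msn (1074), Tak1 (246) and hep (233) and the phosphatase gene puc (745); their density was 15.5. Of the Dpp genes 5 of 10 were hosts, led by the inhibitory Smad gene Dad (1567), the co-repressor gene shn (1225), the antagonist gene sog (449) and the receptor gene tkv (290), with a density of 9.01. Of the far-intronic summits of the pooled list, 9.55% over all genes were on the IDR list. That share was 20.4% in the EGF receptor and ETS list, 31.8% in the JNK list and 16.7% in the Dpp list.

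In the Hippo list 4 of 10 genes were hosts: wts (2080), which encodes the Warts kinase, its upstream regulators kibra (1393) and ex (1161), and Tgi (748), at a density of 6.23. In the JAK/STAT list 4 of 8 were hosts: the phosphatase gene Ptp61F (1046), ken (557), Socs36E (431), a feedback inhibitor, and Stat92E (398), the transcription factor, at a density of 6.81. In the Wingless list 5 of 16 were hosts, with the strongest peaks in the feedback inhibitor gene nkd (2295) and the receptor genes arr (1421), fz2 (1420) and fz (904), and the density was 7.67. Hosts were 3 of 8 Hedgehog genes, ptc (941), hh (719) and inv (286), at a density of 7.97. Hosts were 4 of 10 Notch genes, mam (957), the ligand gene Delta (402), fng (320) and N (250), at a density of 3.56. Their median eligible length was 15.7 kb, and 25% of genes between 10 and 20 kb were hosts. In the Notch list 6.93% of the pooled-list summits were on the IDR list, below the 9.55% over all genes. The share was 10.5% in the Hippo, 15.4% in the JAK/STAT, 11.5% in the Wingless and 13.9% in the Hedgehog list.

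Among genes for transcription factors, 15 of 30 homeodomain genes were hosts, with a median of 12.2 kb of eligible intron and 5.27 peaks per 100 kb. The strongest of their peaks were in hth (2071), zfh1 (1505), Abd-B (1330) and Antp (1264). Of zinc finger and other factors 9 of 19 were hosts, led by grh (3292), bab2 (1314), Mef2 (846) and luna (683), with a median of 24.98 kb and a density of 6.23. Nuclear receptor and ecdysone response genes were hosts in 6 of 16 cases, led by Eip75B (396), Hr3 (327), ftz-f1 (277) and tai (265), with a median of 18.5 kb and a density of 2.77, near that of all genes. Of the pooled-list summits of homeodomain genes 9.47% were on the IDR list, near the 9.55% over all genes. The share was 13.7% for zinc finger and other factors and 10% for nuclear receptor and ecdysone response genes.

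Of 21 genes of junctions and polarity 6 were hosts, led by cno (4915), ed (1097), Fas3 (635) and pyd (627), at a density of 4.53. Of 19 genes of myoblast fusion and muscle 6 were hosts, led by kirre (1676), rols (359), siz (358) and Vrp1 (282), at a density of 3.39. Median eligible lengths were 10.1 kb in the junction list and 10.4 kb in the muscle list. Genes between 10 and 20 kb were hosts in 25% of cases, at a density of 2.88. The exact intervals of the junction share (11.3 to 52.2%) and the muscle share (12.6 to 56.6%) both include that 25%. Of 32 axon guidance genes 12 were hosts, led by the ligand gene NetA (1297), its receptor genes fra (883) and unc-5 (833), and Sema1a (525). Their median eligible length was 23.8 kb and their density 2.22, and genes of between 20 and 50 kb were hosts in 32.4% of cases, so this count lies near that of genes of like length. Of 23 genes of RNA-binding proteins 9 were hosts, led by Rbfox1 (1549), fne (678), how (599) and shep (443). Their median was 30.7 kb and their density 1.32, below that of all genes, and 6.44% of their pooled-list summits were on the IDR list, against 9.55% over all genes.

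The lowest shares were in 3 lists. Of 30 ion channel and synapse genes 0 were hosts, which allows a share of up to 11.6% (exact 95% interval), although their median eligible length was 31.5 kb and they held 48 pooled-list summits in 1027 kb. Of 10 genes in the list of insulin signalling, TOR and kinases, which also holds gish and Lk6, 2 were hosts. These were InR (338) and foxo (243). The list had a median of 2.32 kb and a density of 2.74, and 4.35% of its pooled-list summits were on the IDR list. Of 16 chromatin regulator genes 3 were hosts, trx (2123), Tet (1422) and Psc (290), with a median of 0.747 kb of eligible intron and a density of 12.3. In Tet lay 10 of their 14 peaks, and 15.7% of the pooled-list summits of this list were on the IDR list.

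**Figure D3:**
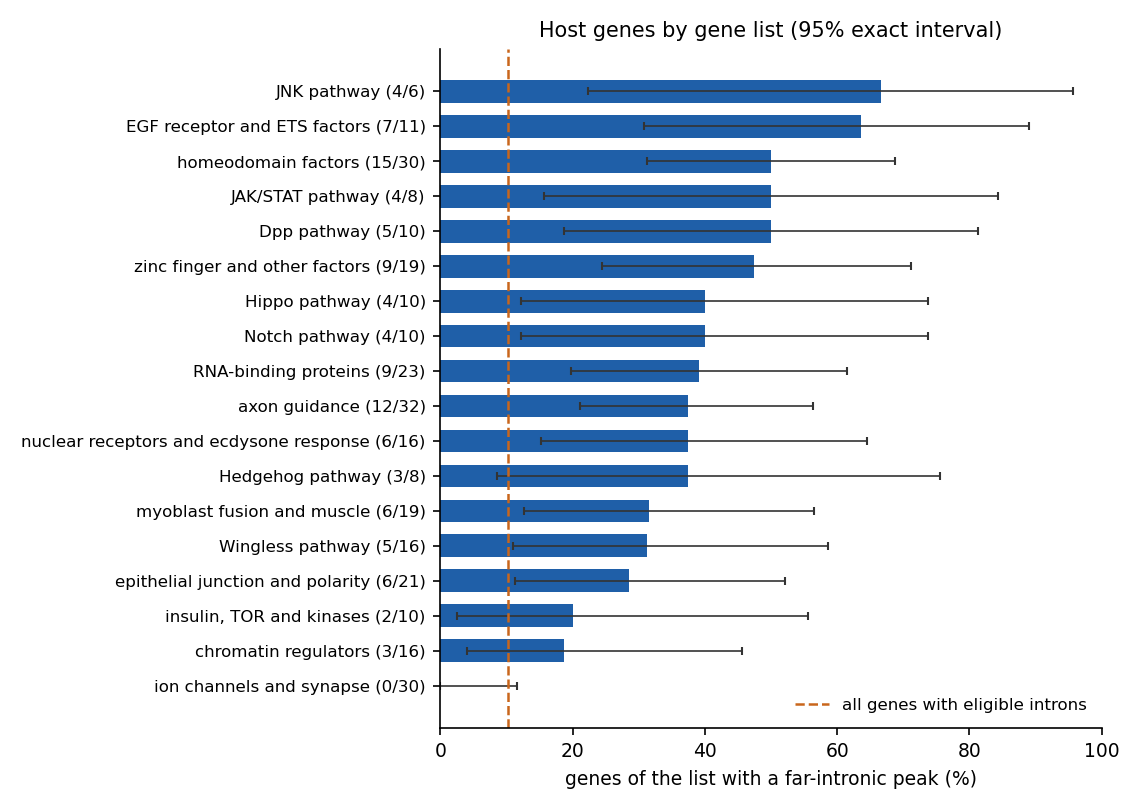
Share of genes with a far-intronic peak in each of 18 gene lists (bars) with exact 95% intervals, and hosts over genes with eligible intron in brackets; the dashed line is the 10.2% of all such genes. JNK genes (4 of 6) stand at the top and ion channel and synapse genes (0 of 30) at the bottom.

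Signal values are those of the authors' lists, have no stated unit and cannot be compared between lists. Far-intronic peaks had a median pooled signal of 327 (quartiles 238 and 550). The medians were 351 in near-intronic, 320 in promoter and 343 in intergenic peaks. Among the 100 strongest peaks of the IDR list 15 were far-intronic. The IDR list is the strongest 3567 of the 30000 summits of the pooled list, and the far-intronic share grew down that list to 28.7% in summits 24970 to 28536. Of all 7666 far-intronic summits on the pooled list 9.57% were on the IDR list.

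The strongest far-intronic peak lay in intron 2 of aop, which encodes the ETS repressor Yan. Its signal was 2321 in replicate 1, 1632 in replicate 2 and 1459 in replicate 3, and it ranked 20, 5 and 5 in the replicates' own lists. A second aop peak had signals of 1223, 730 and 520. The peak in intron 1 of cno, which encodes the junction protein Canoe, had 2428, 1466 and 1050 and ranked 16, 7 and 19.

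All 3 replicates thus placed the aop and cno summits in their 20 highest regions. ImpL2, whose product is secreted and binds insulin-like peptides, followed with 2174, 1139 and 769. The peak in babos had 1629, 1072 and 930. In sbb the 3 replicates gave 1647, 971 and 780 at 1 peak and 1468, 771 and 708 at another.

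The next peaks lay in CG12769, with 1849, 903 and 622, and in grh, the gene of the epidermal transcription factor Grainyhead, with 1610, 962 and 723. The peak in tara had 1345, 804 and 829. The peak in E2f1, the gene of a cell cycle transcription factor, had 1635, 803 and 529. All of these were among the 109 highest regions of each replicate.

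The last of the 12 strongest were in jing, a zinc finger gene, with 1550, 749 and 473, and in Fas1, the gene of an adhesion protein, with 1340, 708 and 568. Values were highest in replicate 1 at each of the 12 peaks, but the scale of each list is its own and only ranks were compared.

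**Figure D4:**
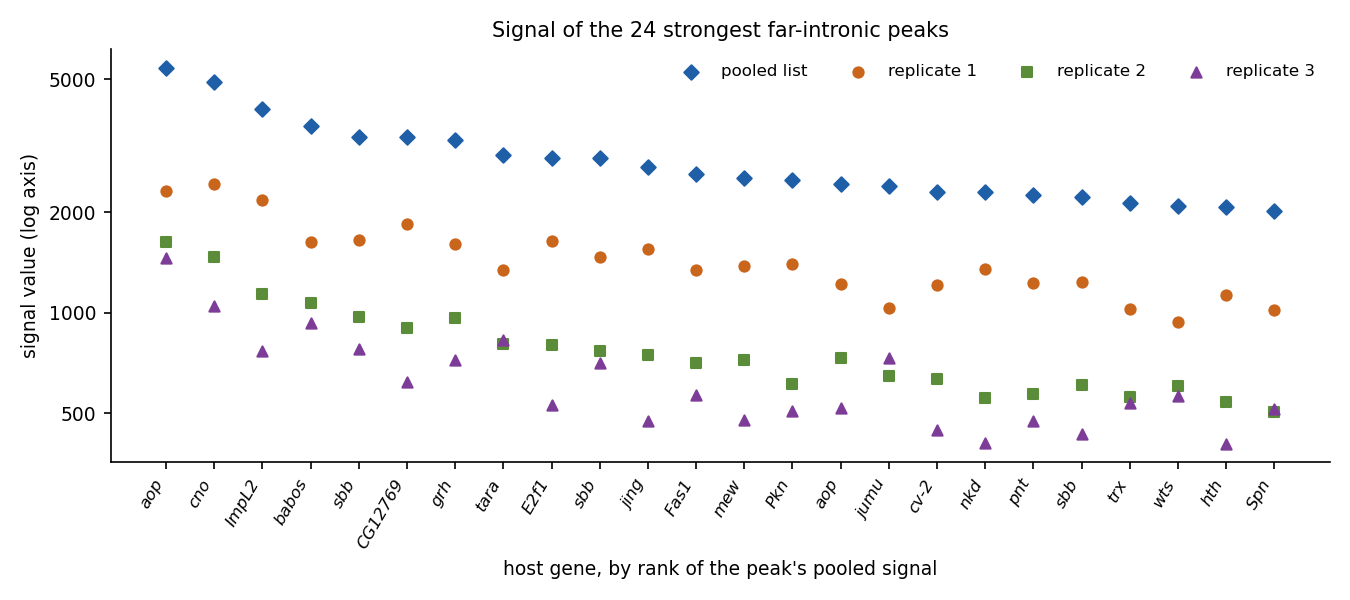
Signal (log axis) of the 24 strongest far-intronic peaks, by host gene in order of pooled signal, in the pooled list and in each replicate's list. The pooled signal runs from 5401 in aop to 2017 in Spn; scales differ between lists.

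Support by the replicates depended on strength. Support by a replicate meant that the region of the peak overlapped, by at least 1 bp, the region of any of that replicate's 3567 highest summits. All 3 replicates supported 476 of the 734 far-intronic peaks, which is 64.9% (exact interval 61.3 to 68.3%), against 65.3% of all peaks. Another 167 were supported by 2 replicates, 83 by 1 and 8 by none. In 4 equal groups by pooled signal, from the strongest, 99.5%, 94.0%, 56.8% and 9.24% were supported by all 3. The IDR list was made from these same replicates, so support describes how the lists relate.

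No difference from another class passed the test. The share was 67.8% in near-intronic, 62.9% in promoter and 68.6% in intergenic peaks (two-sided Fisher's exact tests against far-intronic peaks, adjusted p = 0.37 in each case). Support in replicate 1 was 90.9% of far-intronic and 83.4% of promoter peaks, in replicate 2 it was 83.9% and 80.8%, and in replicate 3 it was 76.6% and 85.5%. Replicate 3 thus went the other way from replicates 1 and 2. Without replicate 3 the far-intronic share exceeded the promoter share by 8.85 percentage points (Fisher's exact test, adjusted p = 4.3e-05), and without replicate 1 the difference was -3.59 points (Fisher's exact test, adjusted p = 0.26). Without replicate 2 it was -1.17 points. All these tests count peaks, which are not replicates of a condition, and the sign turned with the replicate left out. Their p therefore describes these lists alone.

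Percentiles were also compared within each replicate. The median percentile of far-intronic peaks was 48.9 in replicate 1, 48.4 in replicate 2 and 43.4 in replicate 3, a mean of 46.9 ± 3.05 (SD, n = 3). Near-intronic peaks had a mean of 52.6 ± 1.67, and far-intronic peaks were lower in 3 of 3 replicates, with a difference of -5.65 ± 1.39 (exact two-sided sign-flip permutation test, p = 0.25, the smallest that 3 replicates can give). Against promoter peaks, at 50.1 ± 3.31, the difference was -3.20 ± 6.35 and had no common sign (exact permutation test, p = 0.75). Against intergenic peaks, at 48.9 ± 4.12, it was -2.00 ± 1.24 (exact permutation test, p = 0.25). None of the 3 differences could pass a threshold of 0.05 in this design.

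Across the 734 far-intronic peaks the Spearman correlation of signal was 0.84 for replicates 1 and 2, 0.76 for replicates 1 and 3, and 0.82 for replicates 2 and 3. The replicates share 1 control alignment, and the peaks are the strongest summits of a pooled list made from all 3 replicates. These values therefore carry no p. In its own 3567 highest summits each replicate had 713 ± 62.9 far-intronic summits and found 87.8 ± 5.36% of the 414 host genes (SD, n = 3). Of the hosts 299, or 72.2%, were found in all 3 replicates.

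**Figure D5:**
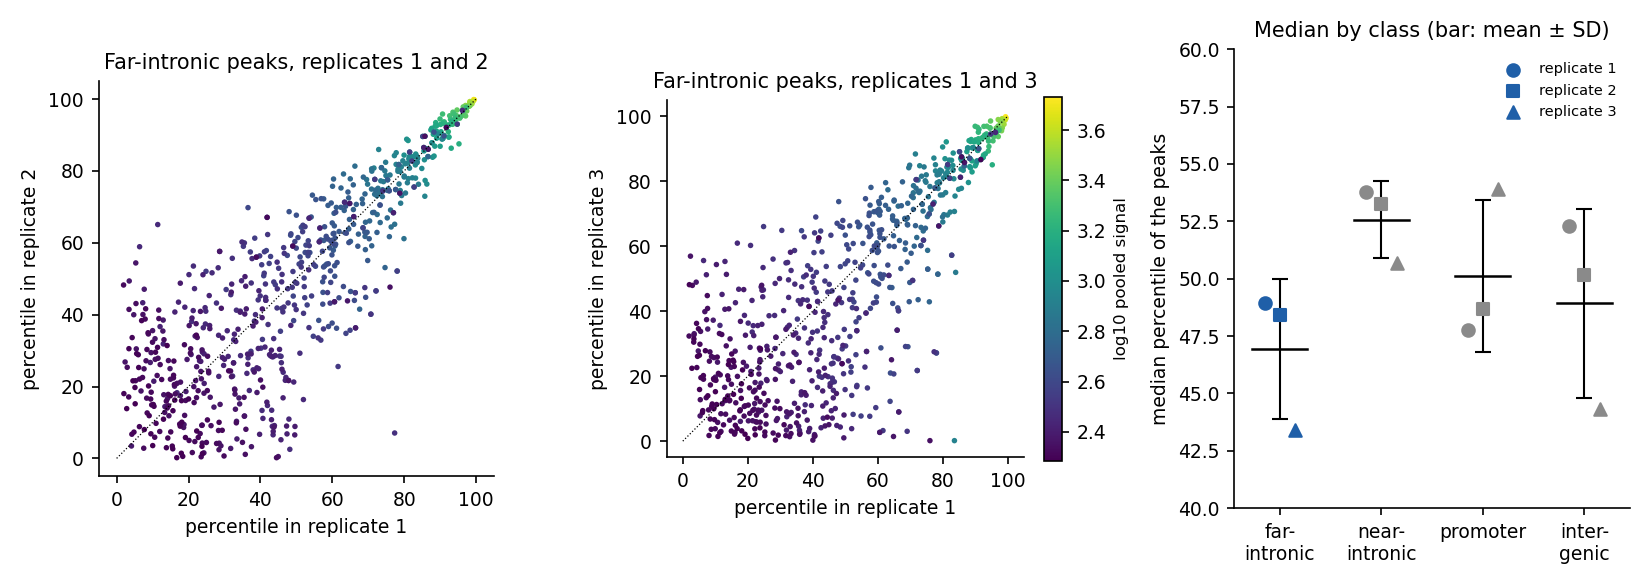
Percentile of each far-intronic peak in replicate 1 against replicates 2 and 3, coloured by pooled signal on a log10 scale, and median percentile by class in each replicate (points) with mean ± SD (bars). Strong peaks lie on the diagonal near 100 and weak ones scatter; the far-intronic median is lower in replicate 3 (43.4) than in replicates 1 (48.9) and 2 (48.4).

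A few far-intronic peaks differed widely in percentile between replicates. A peak in shn with a pooled signal of 846 stood at percentile 83.6 in replicate 1 and 82.5 in replicate 2 but lay in no listed region of replicate 3. A peak in trbl was likewise at 76.1 and 47.7 and unlisted in replicate 3. A peak in CHES-1-like was at 77.4, 7.06 and 27.5.

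The other two of the widest range were in Vsx1, at 64.9, 70.9 and 1.43, and in sff, at 69.1, 47.5 and 3.03. All 5 stood between percentiles 64.9 and 83.6 in replicate 1, and 4 of the 5 were lowest in replicate 3. Each of the 5 hosts also held neighbouring summits under 1000 bp apart that had separate regions. In trbl and sff, with 2 peaks each, the peak named here was 1 of such a pair. Replicate values depend on overlap of regions. Whether the division into regions set the low or missing values was not tested. The 5 peaks of lowest mean percentile were in speck, Pvf3, N, caps and ush, with pooled signals between 193 and 196. None of them passed percentile 20 in any replicate.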

How the data were processed

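ChIP-seq region lists were used as deposited: 1 list for each of 3 biological replicates, a pooled list and an IDR-thresholded list. Per the deposited notes, each list came from alignments on dm6 with 1 control alignment shared by the replicates; for the aligner, the caller, their versions and the IDR cut-off, no statement is given in the sources used here. The signal values are those the authors deposited, with no unit given. The −log10 q-values are also as the authors deposited them and were not used. The lists hold no read counts, so depth is unknown. Positions were compared with Ensembl release 115 (BDGP6.54), which holds 29371 distinct starts, transposable elements included, and with RefSeq Release 6 sequence. Coordinates count from 1. A summit in several protein-coding genes was named after the shortest and counted for each (20 peaks). A peak absent from a replicate's list was ranked lowest there, and peaks that share a region share its replicate values. Confidence intervals (95%, Clopper-Pearson) cover no more than counting error. Replicates are labelled biological; nothing says how their embryos were collected. Tests used scipy 1.17.1 in Python 3.11.15; the 6-mer test was checked on simulated data. All symbols in 18 gene lists were matched by name or synonym. Members, lists, motifs and tests were chosen with earlier results of these data known. Named genes were hosts of the 12 strongest peaks, the 10 with most peaks, up to 4 per list, 5 peaks of widest and 5 of lowest replicate percentile, 3 on each side of 2000 bp and the 6 longest without a peak. Alternatives were other start distances, peak subsets, windows, overlaps and leaving out each replicate.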

Additional observations from a re-analysis of the deposited data

How the results depend on the processing

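No paired analysis was possible because the 3 replicates form 1 group. A start distance of 1000 bp gave a first-intron share of 41.9% and 364 6-mers past the threshold; 5000 bp gave 369 peaks, 217 hosts, a Spearman correlation of 0.33 with eligible length, a first-intron share of 29.5%, 1 motif comparison and 82 6-mers. The peaks stronger than the median of the IDR list gave 359 peaks, 235 hosts, a correlation of 0.29, a first-intron share of 40.7%, 1 motif comparison and 110 6-mers. In it the supported share differed from that of near-intronic peaks by -2.70 points (Fisher's exact test, adjusted p = 0.047), and the percentile differences turned to 0.10 against near-intronic and 1.59 against intergenic peaks. Windows of 50 bp to each side left 2 motif comparisons, 25 bp around the summit left 97 6-mers, and whole gene length gave a correlation of 0.36. TATCGATA against promoter windows was the motif result that passed under every setting tried. The supported share against promoter peaks turned to -0.85 points with a required overlap of 50% of the region and -1.71 with 1783 regions per replicate, which also turned the difference from intergenic peaks to 0.46. Leaving out each replicate gave correlations of 0.329 to 0.350 and 117 to 175 6-mers over the peaks that the remaining pair supported, and over all peaks differences in supported share of -3.59 to 8.85 points from promoter peaks and -4.27 to 0.11 from near-intronic peaks. The percentile difference from promoter peaks ran from -5.38 to 0.45. Flanks of 53 bp, chosen after seeing the data because the centre offers 96 6-mer positions and the flanks 90, gave 242 6-mers and kept the 8 named ones past the threshold. Of the alternatives for single motifs and 6-mers 115 kept direction and threshold and 15 kept direction alone; of those for the other results 77 stayed, 22 moved, 9 reversed and 2 newly passed the threshold. The causes were not tested. Unknown depth limits every signal value.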
